A study of Homo sapiens with 6 samples.

Results

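The granins and prohormone processing genes were examined as a group of 10 genes, SCG2, SCG3, SCG5, CHGA, CHGB, VGF, PCSK1, PCSK1N, PCSK2 and CPE, taken by symbol from the 20030 genes of the count table. They were chosen with results of the comparison of IGF2BP1-KD with IGF2BP1-NC known, so their differences are described here without a test. According to the labels, the RNA came from H929 (NCI-H929) cells, a human cell line of multiple myeloma, a cancer of plasma cells. IGF2BP1 encodes an RNA-binding protein that reads the m6A mark on mRNA. The 3 IGF2BP1-NC libraries were from cells of the genotype IGF2BP1 NC (negative control), and the 3 IGF2BP1-KD libraries from cells with the IGF2BP1 knockdown. According to the supplementary methods, the knockdown used lentiviral shRNA with puromycin selection of stable transfectants. They list 2 shRNA target sequences, and which of them these libraries carried is not given in the sources used here. The labels give no treatment or time, and nothing in them says that the 3 libraries of a group came from separate cultures, so that the spread between them may be technical.

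In endocrine cells and neurons, peptide hormones are made as inactive precursors, packed into dense core granules and released on demand. Granins are acidic proteins that aggregate in the trans-Golgi network and help the cargo into these granules. Prohormone convertases cut the precursors at pairs of basic residues and carboxypeptidase E then trims the exposed ends. These genes are best known from endocrine and nerve cells, where many of them carry REST-binding elements that keep them silent elsewhere. Plasma cells secrete mainly immunoglobulin, through the constitutive route and without such granules.

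The libraries held 16885449 to 18112179 counts, at which 3 counts correspond to 0.166 to 0.178 CPM (counts scaled to the library total). A count of 0 allows up to 3 counts, and this limit covers counting error only. The target of the knockdown was lower, with 48.1, 43.7 and 49.1 FPKM (fragments per kilobase of gene, scaled to the library total) for IGF2BP1 in IGF2BP1-NC against 13.5, 12.9 and 12.8 FPKM in IGF2BP1-KD. The plasma cell label was checked against plasma cell markers, most of which were low, and against erythroid markers, which were abundant. Of 14 listed plasma cell markers, 7 stayed at or under 3 counts throughout, among them TNFRSF17, IRF4 and CD38, and CD27 was at 0 in all libraries. Another 4, XBP1, SDC1, PRDM1 and DERL3, exceeded 1 CPM throughout. XBP1 was at 83.5, 42.1 and 38.4 FPKM in IGF2BP1-NC and 38.5, 40.8 and 36.5 FPKM in IGF2BP1-KD, which overlap, and was not called. SDC1 was at 0.584 FPKM in IGF2BP1-NC and 0.736 FPKM in IGF2BP1-KD. SLAMF7 rose from 4, 5 and 4 counts to 52, 42 and 181 counts (log2 fold change 4.37, edgeR adjusted p = 0.00878). The SLAMF7 call was lost in 3 of 13 alternatives, among them without IGF2BP1-NC library 1 (edgeR adjusted p = 0.0579) or 3 (0.0588). All 15 listed erythroid markers exceeded 1 CPM throughout, with a summed level of 8310 to 9969 CPM in IGF2BP1-NC and 9269 to 10120 CPM in IGF2BP1-KD. The globin gene HBE1 had rank 1 of all genes by mean FPKM in both groups, at 5740 and 6274 FPKM. GATA1 was at 186.5 FPKM in IGF2BP1-NC and 158.2 FPKM in IGF2BP1-KD, and KLF1 at 131.4 and 112.3 FPKM. Which cells these libraries came from was not tested beyond such markers. IGF2BP1-KD library 3 stood apart in the sum of 9 listed eosinophil and granulocyte markers. That sum was 805.2 CPM there, 287.8 and 317.8 CPM in the other IGF2BP1-KD libraries and 28.4 to 40.7 CPM in IGF2BP1-NC. Most of it came from TCN1, MS4A3 and PRG2. In IGF2BP1-KD libraries 2 and 3, MPO had 24 and 25 counts and ELANE had 17 and 17 counts. Of the 15 listed neuroendocrine and neuronal markers, 9 stayed at or under 3 counts in all libraries, and 6 of these, DDC, DBH, ELAVL2, ELAVL3, ELAVL4 and STMN2, were at 0.

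Of the 10 genes, SCG3 was the single one with a substantial level in the control cells, and it was about 9.87-fold lower in the IGF2BP1-KD cells. VGF and SCG2 were low and had intervals that included no difference. The other 7 had at most 9 counts in any library and did not pass edgeR's filter on low counts (filterByExpr), which kept 11994 genes for testing. Of the 3 genes that passed, SCG3 was called lower and none higher. For comparison, 28.2% of all genes tested were called at an adjusted p under 0.05 (the quasi-likelihood test of edgeR, adjusted by the Benjamini-Hochberg method), 14.5% lower and 13.7% higher in IGF2BP1-KD. Since the 10 genes were picked from this comparison, nothing is read from their count.

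**Figure D1:**
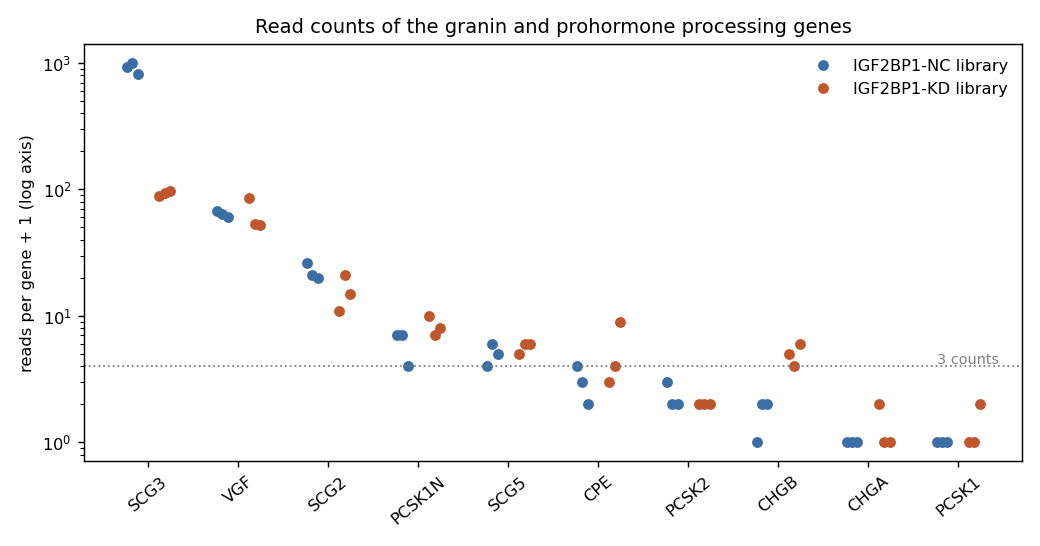
Reads per gene plus 1 on a log axis for each of the 10 genes, 1 point per library, with the 3 IGF2BP1-NC libraries at the left and the 3 IGF2BP1-KD libraries at the right of each gene. SCG3 drops from 819 to 999 reads to 87 to 96 reads, while VGF stays between 51 and 84 reads, and the 7 genes from PCSK1N to PCSK1 have 0 to 9 reads in every library. The dotted line marks 3 counts.

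SCG3 encodes secretogranin III, a granin that binds cholesterol-rich granule membranes and holds chromogranin A there. The gene lies on the plus strand of GRCh38 at chr15:51681492-51721026, has 12 exons, and shares its locus with 2 lncRNA genes on the opposite strand. The libraries were made with a stranded kit, but the strand setting of the counting is not given in the sources used here, so reads of those antisense genes cannot be told apart from reads of SCG3. In IGF2BP1-NC, SCG3 was counted 921, 999 and 819 times, against 87, 93 and 96 times in IGF2BP1-KD. The lowest control library thus lay far above the highest knockdown library, and within each group the libraries were close together. Per length, the level was 15.7 ± 1.86 FPKM (SD, n = 3) in IGF2BP1-NC and 1.60 ± 0.113 FPKM (SD, n = 3) in IGF2BP1-KD. The log2 fold change was -3.30 (standard error 0.118, 95% interval -3.56 to -3.04). Among the 20030 genes, SCG3 moved from rank 4021 to rank 9511 by mean FPKM. In bulk RNA, fewer cells that contain SCG3 transcripts and less SCG3 RNA per cell cannot be told apart.

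The difference of SCG3 did not rest on 1 library. When any 1 of the 6 libraries was left out, the log2 fold change of SCG3 lay between -3.39 and -3.22. Without IGF2BP1-KD library 3, the one with the most eosinophil and granulocyte transcripts, it was -3.33. The SCG3 level in the 3 IGF2BP1-KD libraries was 1.47, 1.66 and 1.67 FPKM. The sum of the eosinophil and granulocyte markers moved with the groups as well, since every IGF2BP1-KD library lay above every control, and its part in the SCG3 difference was not tested.

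VGF encodes a neurotrophin-induced secretory protein that is cut into several active peptides. It lies on the minus strand at chr7:101162509-101165569 with 2 exons. VGF had 66, 63 and 59 counts in IGF2BP1-NC and 84, 52 and 51 counts in IGF2BP1-KD. IGF2BP1-KD library 1 was the highest of all 6 and the other IGF2BP1-KD libraries were the lowest, so the groups overlapped. Its level was 1.16 FPKM in both groups, with an SD of 0.0916 in IGF2BP1-NC and of 0.319 in IGF2BP1-KD (n = 3 each). The log2 fold change of VGF was -0.0047 (standard error 0.232), and the 95% interval of -0.51 to 0.50 leaves room for a difference of about 1.42-fold either way.

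SCG2 encodes secretogranin II, the precursor of the peptide secretoneurin. It lies on the minus strand at chr2:223596940-223602361 with 2 exons. SCG2 had 25, 20 and 19 counts in IGF2BP1-NC and 10, 20 and 14 counts in IGF2BP1-KD, so that IGF2BP1-KD library 2 fell within the range of the controls. The level was 0.472 ± 0.0799 FPKM (SD, n = 3) in IGF2BP1-NC and 0.330 ± 0.123 FPKM (SD, n = 3) in IGF2BP1-KD. The log2 fold change of SCG2 was -0.53 (standard error 0.355, 95% interval -1.31 to 0.25), and a fall of up to 2.47-fold or a small rise are both within that interval.

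**Figure D2:**
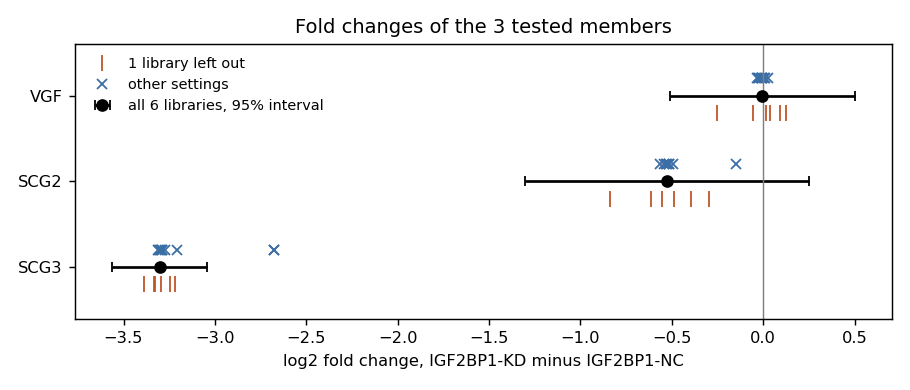
Log2 fold change (IGF2BP1-KD minus IGF2BP1-NC) of VGF, SCG2 and SCG3 with its 95% interval over all 6 libraries (black), with 1 library left out in turn (bars below) and under the other settings (crosses above). SCG3 stays between -3.39 and -2.68 in every setting, and the intervals of VGF and SCG2 include 0.

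The chromogranins had very few counts. Chromogranin A (CHGA, chr14:92923150-92935285), the serum marker of neuroendocrine tumours, had 0 counts in all 3 IGF2BP1-NC libraries and 1, 0 and 0 counts in IGF2BP1-KD. Chromogranin B (CHGB, chr20:5911510-5925353) had 0, 1 and 1 counts in IGF2BP1-NC and 4, 3 and 5 counts in IGF2BP1-KD. CHGB was the one of the 7 untested genes whose groups did not overlap in counts, and 8.99% of the 4994 genes with a count that were not tested had groups without overlap. Its control counts lie within what a count of 0 allows, and no fold is given. CHGB was called higher in 1 setting, limma on log2(FPKM + 1) without a filter on low values. It was not called by edgeR with no filter on low counts, the only other setting that gave it an adjusted p.

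The convertases and their helpers also had few counts. PCSK1 (chr5:96390333-96434143), the prohormone convertase 1/3 that makes the first cuts, had a single count in all 6 libraries together, in IGF2BP1-KD library 3. PCSK2 (chr20:17226107-17484578), the convertase that makes the later cuts, had 2, 1 and 1 counts in IGF2BP1-NC and 1 count in each IGF2BP1-KD library. PCSK1N (chrX:48831096-48835610), whose product proSAAS inhibits PCSK1, had 6, 6 and 3 counts in IGF2BP1-NC and 9, 6 and 7 counts in IGF2BP1-KD. The groups of PCSK1N met at 6 counts. SCG5 (chr15:32641676-32697098) encodes 7B2, the chaperone of PCSK2, and had 3, 5 and 4 counts in IGF2BP1-NC and 4, 5 and 5 counts in IGF2BP1-KD. SCG5 overlaps a readthrough gene, ARHGAP11A-SCG5, and an antisense gene, SCG5-AS1, and how reads on such overlaps were assigned is not given in the sources used here, so these few counts are uncertain. CPE (chr4:165361194-165498547), the carboxypeptidase that trims the cut ends, had 3, 2 and 1 counts in IGF2BP1-NC and 2, 3 and 8 counts in IGF2BP1-KD. The 8 counts of CPE were in IGF2BP1-KD library 3, and the other 2 IGF2BP1-KD libraries lay within or near the control range.

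Ordered by mean FPKM, the control cells had SCG3 first, followed by VGF, SCG2, PCSK1N, SCG5, CPE, PCSK2 and CHGB, with CHGA and PCSK1 at 0. Of the neighbours in that order, SCG3 was above VGF, VGF above SCG2, SCG2 above PCSK1N and SCG5 above CPE in every control library, and the others overlapped. In the IGF2BP1-KD cells SCG3 still came first, but its range of 1.47 to 1.67 FPKM overlapped that of VGF, 0.955 to 1.53 FPKM. VGF remained above the next gene, PCSK1N, and from PCSK1N down to CHGB each gene overlapped the next. SCG3 made up 87.2%, 88.5% and 88.1% of the summed FPKM of the 10 genes in IGF2BP1-NC and 36.5%, 43.4% and 43.4% in IGF2BP1-KD. The other 9 genes together had 105, 98 and 88 counts in IGF2BP1-NC and 115, 90 and 92 counts in IGF2BP1-KD, which overlap.

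The promoters of SCG3 and VGF are shown because these are the best measured of the 10 genes and differed in their change. RefSeq (GRCh38.p14) windows from 250 bases before to 50 bases after the start were matched by symbol for 8 of the 10 genes, not for SCG2 and CHGB. The cAMP response element TGACGTCA was searched on both strands and is printed in capitals, with the 250 bases before the start of SCG3 (plus strand, chr15:51681253-51681502) and VGF (minus strand, chr7:101165570-101165819) given 5′ to 3′.
SCG3: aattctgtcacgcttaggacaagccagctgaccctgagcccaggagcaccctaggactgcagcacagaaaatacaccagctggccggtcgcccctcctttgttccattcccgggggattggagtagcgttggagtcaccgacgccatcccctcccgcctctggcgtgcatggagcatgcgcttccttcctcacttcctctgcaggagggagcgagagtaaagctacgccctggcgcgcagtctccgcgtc
VGF: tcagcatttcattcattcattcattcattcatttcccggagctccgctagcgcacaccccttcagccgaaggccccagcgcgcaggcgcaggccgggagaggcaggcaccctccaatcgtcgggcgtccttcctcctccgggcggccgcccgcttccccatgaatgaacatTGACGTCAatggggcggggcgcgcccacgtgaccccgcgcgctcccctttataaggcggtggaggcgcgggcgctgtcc
The element is in VGF 79 to 72 bases before the start, and also in CHGA and PCSK1, but these letters are not in the windows of SCG3, SCG5, PCSK1N, PCSK2 and CPE. Of 35116 RefSeq windows of that length, 1.85% hold it. A match of letters is a description only.

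The window of SCG3 holds, after its start, the letters of both arms of an RE1 element, the sequence that REST, a repressor of neuronal genes, is known to bind. These arms were chosen for the search after the sequence had been read. The stretch lies on the plus strand at chr15:51681511-51681536, from base 9 to base 34 after the start, and the capitals mark the left arm TTCAGCACC and the right arm GGACAGCGC, with 8 bases between them.
SCG3 RE1 arms: TTCAGCACCcacagggcGGACAGCGC
The left arm is in 0.376% and the right arm in 0.581% of the 35116 windows (either strand), and both on 1 strand with at most 25 bases between them in 5 windows (0.0142%), those of SCG3, UNC13A, GRIA2, LHX3 and TPH2. VGF holds the right arm alone, on the opposite strand, and the other matched members hold neither arm. Of these 5 genes, SCG3 was lower and UNC13A, which primes vesicles for release, rose from 44, 49 and 42 to 90, 94 and 100 counts. GRIA2, LHX3 and TPH2 had at most 7 counts in any library and were not tested.

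REST and 9 of its corepressors and partners were all tested. REST itself had 912, 812 and 892 counts in IGF2BP1-NC and 978, 933 and 931 counts in IGF2BP1-KD. The REST groups did not overlap in counts, but the log2 fold change was small, 0.13 (standard error 0.0692, edgeR adjusted p = 0.193). Groups without overlap are common here, at 45.6% of all genes tested (in CPM with edgeR's TMM scaling). RCOR2, a CoREST protein that bridges LSD1 to REST complexes, fell from 152, 148 and 97 counts to 29, 31 and 38 counts. All 3 IGF2BP1-KD libraries were far below the lowest control, with a log2 fold change of -2.01 (standard error 0.240, edgeR adjusted p = 0.000222). Its relatives RCOR1 and RCOR3 had log2 fold changes of -0.08 and -0.04 and were not called. KDM1A, which encodes LSD1, was at 66.1 FPKM in IGF2BP1-NC and 68.1 FPKM in IGF2BP1-KD and was not called. Of the 10 genes, 3 fell (RCOR2, SIN3A and HDAC2) and 1 rose (EHMT2), beside 14.5% lower and 13.7% higher over all genes tested. Their median log2 fold change was -0.04, beside -0.0048 over all genes tested. SIN3A, HDAC2 and EHMT2 had log2 fold changes of -0.25, -0.17 and 0.20.

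The other convertases and trimming enzymes ranged from a few counts to high levels. FURIN, the convertase of the trans-Golgi network, was at 69.1 FPKM in IGF2BP1-NC and 68.9 FPKM in IGF2BP1-KD, and CPD, a carboxypeptidase of the same compartment, at 7.24 and 7.72 FPKM. Neither was called. PCSK5 and QPCT had at most 4 counts in any library and were not tested. Of 14 listed genes of this kind, 10 were tested, 4 rose and 1 fell, with a median log2 fold change of 0.03. The shares over all genes tested were 13.7% higher and 14.5% lower. CTSL, the lysosomal protease cathepsin L, which can also cut prohormones, rose from 2137, 2177 and 2017 counts to 3289, 3139 and 5029 counts, with the highest value in IGF2BP1-KD library 3. Its log2 fold change was 0.86 (standard error 0.192, edgeR adjusted p = 0.0241). The call of CTSL was lost when any 1 of the control libraries was left out, with edgeR adjusted p-values of 0.0633 to 0.101, and likewise with no filter on low counts (0.065). PCSK7 and MBTPS1 rose by less than 1.5-fold and PCSK6 fell by less than 1.5-fold. PAM, the amidating enzyme of neuropeptides, had 13, 31 and 17 counts in IGF2BP1-NC and 8, 21 and 10 counts in IGF2BP1-KD, which overlap.

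Of 40 listed genes of dense core granules and their exocytosis, 24 were tested, 2 rose and 4 fell, with a median log2 fold change of 0.0023. For all genes tested, 13.7% were called higher and 14.5% lower. Another 9 had at most 3 counts in every library, among them the t-SNARE gene SNAP25, and CADPS, SLC18A1, SYT4, RAB3C and DOC2B were at 0. VAMP2, a vesicle SNARE that many secretory cells use, was at 14.5 FPKM in IGF2BP1-NC and 12.8 FPKM in IGF2BP1-KD and was not called. CPLX1, complexin 1, which clamps the SNARE complex, fell from 49, 47 and 57 counts to 18, 26 and 27 counts (log2 fold change -1.09, standard error 0.261, edgeR adjusted p = 0.00977). UNC13A rose by 1.08 on the log2 scale (standard error 0.190, edgeR adjusted p = 0.00207). Both thus changed about 2.1-fold, in opposite directions and without overlap between the groups, as did 45.6% of all genes tested for the overlap alone. PTPRN, the granule membrane protein IA-2, rose from 18, 13 and 33 counts to 53, 38 and 45 counts (log2 fold change 1.09, standard error 0.330, edgeR adjusted p = 0.0283). The PTPRN call was lost when IGF2BP1-NC library 1 or 2 or any 1 IGF2BP1-KD library was left out, with edgeR adjusted p-values of 0.0505 to 0.109. SYTL4, DMXL2 and RABEP1 fell by less than 1.5-fold.

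Most peptide precursors were at or near the floor. Of 49 listed precursor genes, 35 stayed at or under 3 counts in all libraries, and 16 of these, such as POMC, INS, SST and CCK, were at 0 throughout. Of the 9 tested, 3 rose and 1 fell, with a median log2 fold change of 0.05, beside 13.7% higher and 14.5% lower over all genes tested. The most abundant was NMU, the precursor of neuromedin U, at 154 FPKM in IGF2BP1-NC and 113 FPKM in IGF2BP1-KD. It had 3522, 4043 and 3241 counts in IGF2BP1-NC and 2251, 2292 and 3297 counts in IGF2BP1-KD, which overlap, and was not called. GAL, the galanin precursor, was at 66.1 and 69.0 FPKM and was not called. TAC3, the neurokinin B precursor, rose from 7, 29 and 34 counts to 85, 85 and 112 counts. All IGF2BP1-KD libraries were above the highest control, with a log2 fold change of 2.01 (standard error 0.408, edgeR adjusted p = 0.00608). NTS, the precursor of neurotensin, rose from 46, 30 and 28 counts to 101, 90 and 101 counts, again without overlap, with a log2 fold change of 1.49 (standard error 0.230, edgeR adjusted p = 0.000965). The share without overlap over all genes tested was 45.6%. NUCB1 and NUCB2, the nucleobindin genes, fell by 0.33 and rose by 0.31 on the log2 scale.

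**Figure D3:**
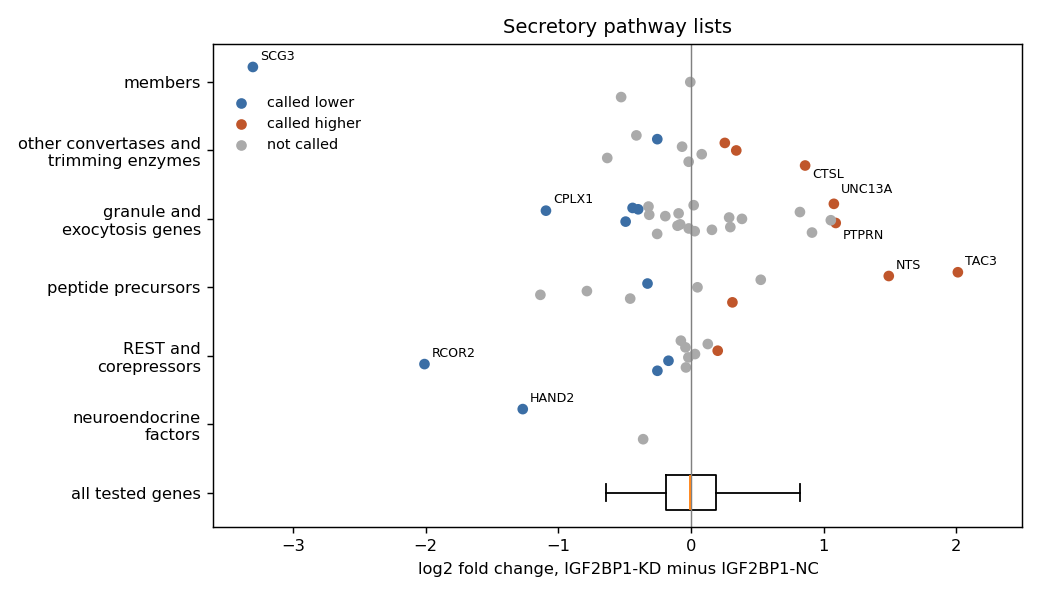
Log2 fold change (IGF2BP1-KD minus IGF2BP1-NC) of the tested genes reported here among the 10 granins and processing genes and 5 lists of related genes, coloured by edgeR's call, above a box of all 11994 tested genes (median, quartiles, and whiskers at the percentiles 5 and 95). SCG3 lies farthest to the left at -3.30, RCOR2 at -2.01, and TAC3 farthest to the right at 2.01, and the median of all genes is at -0.0048.

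Of 18 listed neuroendocrine transcription factors, 2 were tested and 13 had at most 3 counts in every library. INSM1, ISL1, NEUROD2 and NEUROG3 were among those at 0. HAND2, a factor of sympathetic neurons and heart, fell from 154, 181 and 131 counts to 95, 60 and 38 counts (log2 fold change -1.27, standard error 0.284, edgeR adjusted p = 0.00954). Its groups did not overlap, like those of 45.6% of all genes tested. PAX6 was tested and not called, with 133, 55 and 65 counts in IGF2BP1-NC and 59, 59 and 78 counts in IGF2BP1-KD. Among the neuronal markers, TUBB3 fell from 429, 453 and 457 to 297, 269 and 299 counts (log2 fold change -0.62, edgeR adjusted p = 0.000666). SYP, the vesicle protein synaptophysin, had 158, 123 and 145 counts in IGF2BP1-NC and 111, 110 and 66 counts in IGF2BP1-KD and was not called (edgeR adjusted p = 0.0651). ENO2 went the other way, with 392, 412 and 407 counts in IGF2BP1-NC and 534, 422 and 705 counts in IGF2BP1-KD. It was not called either (log2 fold change 0.46, edgeR adjusted p = 0.0524). DLL3, the remaining tested marker of this list, had a log2 fold change of -0.05 and was not called.

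**Figure D4:**
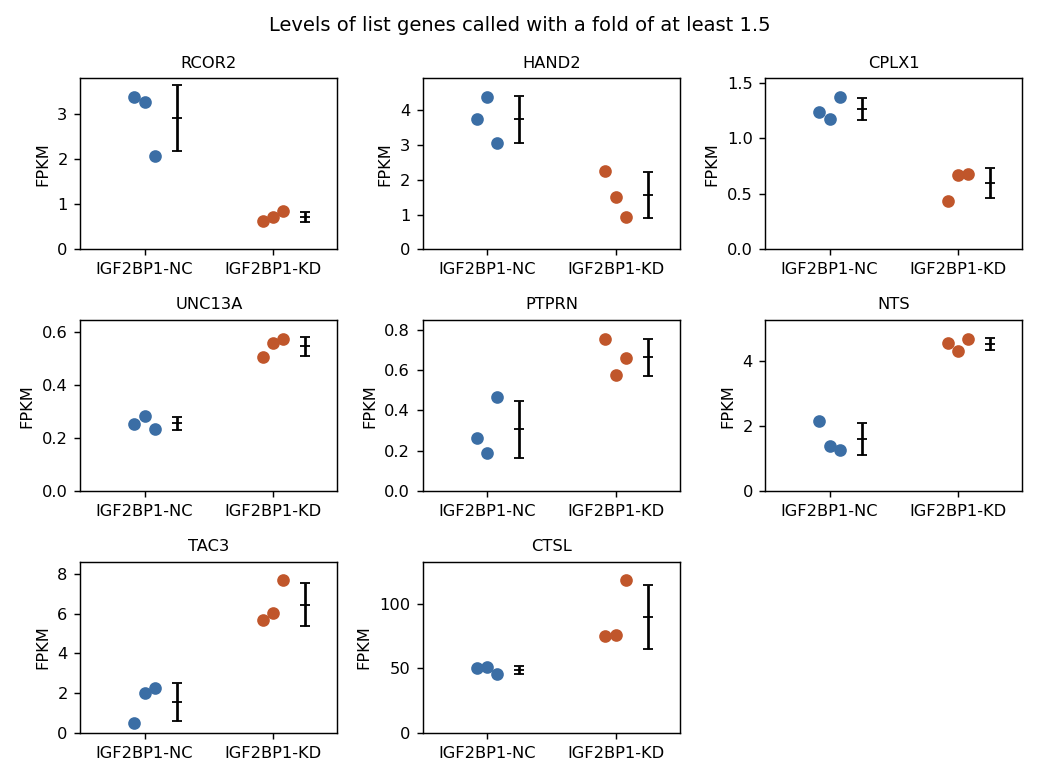
FPKM in each library (points), with the mean and SD of the 3 libraries beside them, for 8 genes of the 5 lists that were called with a fold of at least 1.5. RCOR2, HAND2 and CPLX1 lie lower and the other 5 higher in all 3 IGF2BP1-KD libraries than in any IGF2BP1-NC library. Among all genes tested, 45.6% had groups without overlap in CPM.

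Genes near SCG3 on chromosome 15 were read from the same fit. Within 500 kb of SCG3, 11 genes were listed and 7 tested, of which 4 were called lower and none higher, with a median log2 fold change of -0.44. Over all genes tested, 14.5% were called lower and 13.7% higher, with a median of -0.0048. The nearest start upstream is that of DMXL2, a regulator of the vesicle proton pump, 58.7 kb away on the opposite strand. DMXL2 fell from 2349, 1969 and 2317 counts to 1485, 1592 and 1783 counts (log2 fold change -0.44, edgeR adjusted p = 0.00386). Downstream, LYSMD2 and TMOD2 both start 70.1 kb from the start of SCG3, on opposite strands. TMOD2, a neuronal tropomodulin that caps actin filaments, fell from 270, 204 and 153 counts to 48, 62 and 64 counts (log2 fold change -1.84, edgeR adjusted p = 0.000327). LYSMD2 fell from 185, 174 and 144 counts to 90, 76 and 108 counts (log2 fold change -0.87, edgeR adjusted p = 0.00425). MAPK6, which encodes the kinase ERK3 and starts 270.6 kb away, fell by 0.87 on the log2 scale (edgeR adjusted p = 1.05e-05). TMOD3, which lies between TMOD2 and MAPK6, had a log2 fold change of -0.12, and LEO1 and GNB5 had -0.03 and -0.11, and none of these 3 was called. Around VGF, 18 of 26 listed genes were tested, with 2 lower and 3 higher and a median of 0.06, and around SCG2 3 of 5, with 1 lower. Whether the number of lower genes near SCG3 differs from that elsewhere was not tested.

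**Figure D5:**
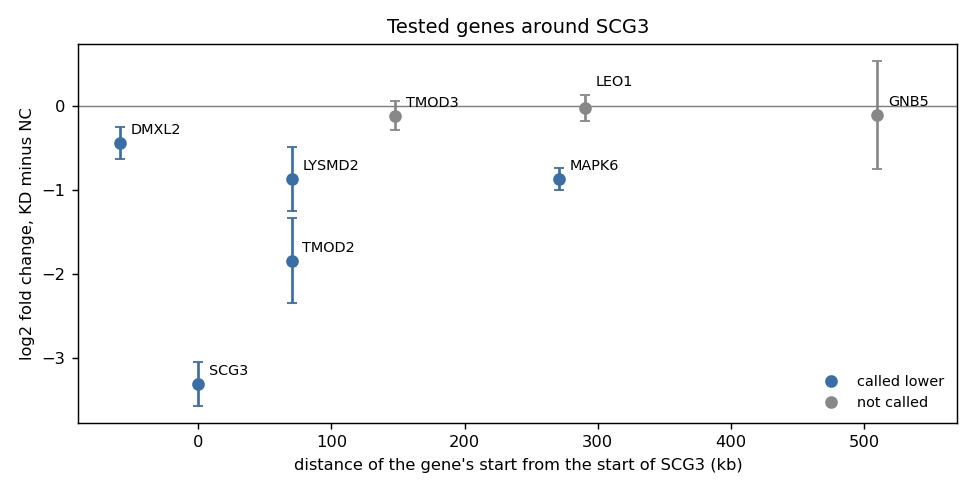
Log2 fold change (IGF2BP1-KD minus IGF2BP1-NC, with 95% interval) of the tested genes around SCG3 against the distance of each gene's start from the start of SCG3 in kb. SCG3 at -3.30, TMOD2 at -1.84, LYSMD2 and MAPK6 at -0.87 and DMXL2 at -0.44 were called lower, and TMOD3, LEO1 and GNB5 lie within 0.12 of 0.

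The 5 genes whose log2 CPM, here with edgeR's TMM scaling, followed that of SCG3 most closely over the 6 libraries were RAP2B, HADH, LAPTM4B, GTF2E2 and KLHL17. Their Pearson's r with SCG3 was 0.998 to 0.999. The 6 points form 2 groups, so these values mostly describe a shared difference between IGF2BP1-NC and IGF2BP1-KD and small spreads within each, and no p is given. GTF2E2, a subunit of the general transcription factor TFIIE, had 823, 841 and 787 counts in IGF2BP1-NC and 245, 229 and 272 counts in IGF2BP1-KD. RAP2B, a small GTPase, had 1901, 1858 and 1835 counts in IGF2BP1-NC and 887, 870 and 867 counts in IGF2BP1-KD. The falls of these 5 genes ranged from 1.498-fold for KLHL17 to 3.27-fold for GTF2E2, all smaller than that of SCG3. Over all 11994 genes tested, the groups of 5464 (45.6%) did not overlap in CPM with edgeR's TMM scaling.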

How the data were processed

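RNA-seq was conducted on 6 libraries. Per the labels and methods, the authors used Trimmomatic for trimming, HISAT2 for mapping to GRCh38, HTSeq for counts per gene and Cufflinks for FPKM, and the versions and the strand setting are not given in the sources used here. The deposited counts are whole and not normalized. Within each gene, the deposited FPKM were proportional to counts divided by the library total, as checked in 9309 well-counted genes. The gene lengths used were not checked. Counts and FPKM hold the same genes in the same order. Counts were fitted across all genes with edgeR 4.0.16 in R 4.3.3 (TMM, filterByExpr, robust quasi-likelihood test, two-sided, Benjamini-Hochberg), with an adjusted p under 0.05 as the call. Depth is given with the results. Alternatives were DESeq2 1.42.0, limma 3.58.1 (voom, and on log2(FPKM + 1 or 0.1)), other scaling and filters, a replicate block and each library left out. The main edgeR fit, DESeq2, limma-voom and limma on log2(FPKM + 1) were first tested on simulated counts with known changes. The changed genes there were well counted, so changes at low counts were not covered. The other settings were not simulated.

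The members and lists were chosen with earlier results of these data known. Named were all members, list genes called with a fold of at least 1.5 (at most 5 per list), label checks, the 5 nearest tested genes on each side within 500 kb and the 5 genes most correlated with SCG3. Other genes named only by level or a small change were chosen after their values were seen. Some genes of the lists and neighbourhoods are not reported here. Positions are from GENCODE release 44.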

Additional observations from a re-analysis of the deposited data

How the results depend on the processing

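SCG3 was called lower and VGF and SCG2 were not called in every setting in which they could be fitted. The log2 fold change of SCG3 moved from -3.30 to -2.68 with limma on log2(FPKM + 1), with and without the filter, since the pseudocount shrinks low values, and lay between -3.39 and -3.22 with 1 library left out. With limma on log2(FPKM + 1) without a filter, 2 members were called, SCG3 and CHGB. The 20 calls among the 5 lists (10 lower, 10 higher) became 13 under that setting and 13 to 19 with 1 library left out, 13 without IGF2BP1-KD library 1. The 10 lower calls were 6 with limma on log2(FPKM + 1), on log2(FPKM + 0.1) and without the filter, and 7 to 9 with 1 library left out. The 10 higher calls were 6 to 10 with 1 library left out, 6 without IGF2BP1-KD library 1 or 3. The 1738 genes called lower over all genes were 1146 to 2062 with 1 library left out, with 1146 without IGF2BP1-KD library 2. The causes were not tested. The replicate numbers did not pair the libraries (correlations of deviations for the same number -0.052, 0.036 and -0.106). With the replicate block, 2913 genes (24.3%) were called in place of 3386, 17 in the lists in place of 20, and the same 1 of the members, with SCG3 at -3.30, and CTSL lost its call (adjusted p 0.0503). Directions were compared for the members, the list genes called with a fold of at least 1.5 and the 5 nearest tested genes on each side. None of those called changed direction among the alternatives run. The directions of other called genes were not compared. The log2 fold change of VGF, which was not called, lay on both sides of 0, from -0.25 to 0.12 with 1 library left out. At this depth, changes in the 7 untested members cannot be read.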

Other observations

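Of the genes within 500 kb of VGF, PLOD3, a collagen lysyl hydroxylase, and the claudin gene CLDN15 rose by 0.37 and 0.49 on the log2 scale, and EPHB4, an ephrin receptor, and ZNHIT1 fell by 0.31 and 0.38. AP1S1, a subunit of the AP-1 clathrin adaptor whose gene ends 0.9 kb from VGF, had 1037, 1122 and 1112 counts in IGF2BP1-NC and 1032, 1010 and 1001 counts in IGF2BP1-KD and was not called. Near SCG2, MRPL44 was called lower with a log2 fold change of -0.38, a call that was lost with limma on FPKM and without any 1 of 5 libraries.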
